A study of Oryctolagus cuniculus with 6 samples.

Results

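The Notch receptors NOTCH1 and NOTCH2, the Notch effectors HES1, HES5, HEY1 and HEY2, and the progenitor transcription factors SOX2, SOX9 and PAX6 were examined in rabbit retina with and without proliferative vitreoretinopathy (PVR). These 9 genes were chosen by name, by a rule that uses no measured value, although earlier results of these data were known. Of them, 8 were found among the 28788 genes of the files. HES5 was not matched by its symbol or by its RefSeq gene identifier and is not reported. The experiment compared 3 normal retina samples (normal 1 to 3) with 3 PVR samples (PVR 1 to 3) of Oryctolagus cuniculus. In the PVR model, the sclera of adult rabbits was punctured, some vitreous was removed, and platelet-rich plasma was injected into the vitreous cavity. The sources used here do not describe a sham operation, the strain or the time of collection, and do not say whether the 3 samples of a group came from separate animals, so the p-values measure the spread between these samples, which may be technical. Polyadenylated RNA was sequenced from retina, a tissue of many cell types, in which fewer cells of a type and less RNA per cell cannot be told apart.

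In Notch signaling, a ligand on one cell binds a Notch receptor on its neighbor, the receptor is cut, and its intracellular part enters the nucleus and activates genes with the DNA-binding protein RBPJ. HES1, HES5, HEY1 and HEY2 encode repressors that are switched on in this way and hold back neuronal differentiation. In the developing retina they act beside SOX2, SOX9 and PAX6 to maintain progenitor cells. In the mature retina, SOX2 and SOX9 are retained by Müller glia, the radial glial cells of the retina, and PAX6 is expressed mainly in amacrine, horizontal and ganglion cells. After injury, Müller glia of fish re-enter a progenitor state, whereas those of mammals mostly react with gliosis, and these genes are therefore used to follow that state.

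The total number of counted reads was between 31904593 and 43035080 per sample. Lens genes set one library apart: 13 matched lens markers took 3.14% of the counts in normal 2, against 0.00164% to 0.00195% in normal 1 and normal 3 and 0.0289% to 0.032% in the PVR samples. Results that turn on this library are also given without it. The 15 matched Müller glia markers were all detected, with mean FPKM values of 269 for GLUL (glutamine synthetase) and 64.6 for RLBP1 (the retinaldehyde-binding protein CRALBP), and 12 of 12 rod and cone markers were detected as well. FPKM, the read count scaled to gene length and to the sample's total of counted reads, is used here to compare levels between genes. CPM, the read count scaled to the TMM-corrected library size only, is used to compare samples.

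All 8 genes were expressed in the normal retina. Ordered by mean FPKM over the 6 samples, PAX6 was highest at 43.1 ± 5.62 (SD, n = 6), followed by SOX9 at 20.8 ± 1.92, SOX2 at 15.9 ± 1.77, NOTCH2 at 14.5 ± 0.692, HES1 at 10.8 ± 1.55, HEY1 at 9.89 ± 1.07, NOTCH1 at 6.86 ± 0.672 and HEY2 at 2.82 ± 0.742. PAX6 stood above 93.1% of the 18697 genes tested, and HEY2 above 43.8%. The FPKM ranges over the 6 samples did not overlap between PAX6 and SOX9, NOTCH2 and HES1, HEY1 and NOTCH1, or NOTCH1 and HEY2. The ranges of SOX9 and SOX2, of SOX2 and NOTCH2, and of HES1 and HEY1 overlapped, although SOX9 was above SOX2 in 6 of 6 samples. The order of HES1 and HEY1 depended on the group, HES1 being above HEY1 in 0 of 3 normal and 3 of 3 PVR samples. NOTCH2 was thus the more abundant receptor per length, with NOTCH1 at 0.491 ± 0.0351 (SD, n = 3) of its FPKM in normal retina and 0.458 ± 0.0398 (SD, n = 3) in PVR.

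No member passed an adjusted p of 0.05 in the comparison of PVR with normal retina. The quasi-likelihood F-test of edgeR, with p-values adjusted after Benjamini and Hochberg over all genes tested, called 1.70% of them (1.09% higher and 0.615% lower in PVR), so 0 of 8 does not stand apart from the background. At an unadjusted p under 0.05 the count was also 0 of 8, against 21.2% of all genes, and with DESeq2 it was 0 of 8 at an adjusted p under 0.05, against 8.75% (5.43% higher and 3.33% lower). With the study's further threshold, an absolute log2 fold change above 1, edgeR called 1.01% of all genes (0.690% higher and 0.316% lower) and again 0 of 8. The fitted log2 fold changes ran from -0.28 for HEY1 to 0.35 for HEY2, with 4 positive and 4 negative, and their median was 0.04, against -0.0088 over all genes tested. The 95% interval of every one of the 8 excluded a change of 1 on the log2 scale in either direction, as did that of 61.4% of all genes tested. A smaller change is within these intervals for each gene.

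**Figure D1:**
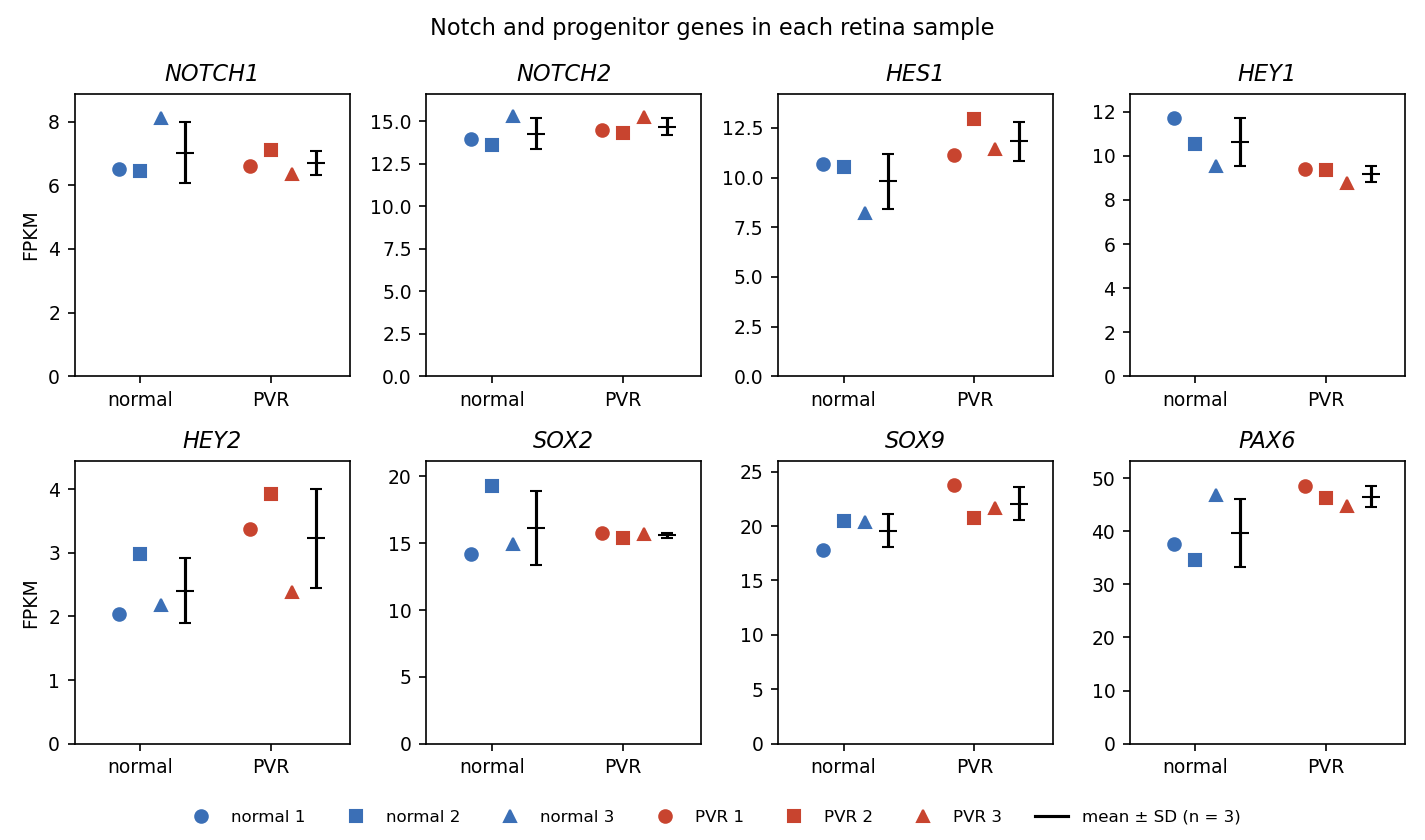
FPKM (vertical axes, each from 0) of the 8 matched genes in every normal (blue) and PVR (red) retina sample, with the symbol giving the replicate number and the black bar the mean ± SD (n = 3). All HEY1 points of PVR lie below those of normal retina, as in CPM for 14.6% of all genes tested. Those of HES1 and SOX9 lie just above in FPKM but overlap in CPM, and the other 5 genes overlap. SOX2 has 1 high point, normal 2 at 19.3.

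**Figure D2:**
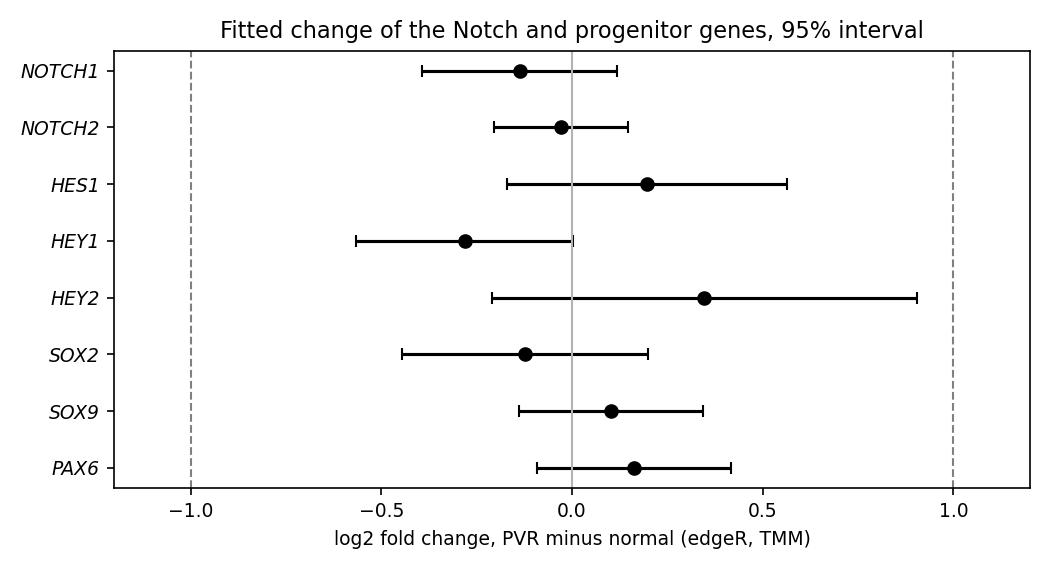
Log2 fold change of each gene (horizontal axis, PVR minus normal, edgeR after TMM) with its 95% interval; the dashed lines mark a change of 1. Every interval lies between the dashed lines and includes 0, and HEY2 has the widest, from -0.21 to 0.90.

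Neither receptor passed the test. NOTCH1, which in the retina is active in progenitors and Müller glia, had FPKM values of 6.51, 6.45 and 8.13 in normal 1 to 3, against 6.62, 7.11 and 6.37 in PVR 1 to 3. The PVR samples lay within the range of the normal samples except PVR 3, which was slightly lower, and normal 3 was the highest of all. Its log2 fold change was -0.14 ± 0.11 (SE), with a 95% interval from -0.39 to 0.12 and edgeR's adjusted p at 0.488. It was -0.032 without normal 3, which had the highest value. NOTCH2, a closely related receptor, had FPKM values of 13.9, 13.6 and 15.3 in normal retina, against 14.5, 14.3 and 15.2 in PVR retina. All 3 PVR values fell inside the normal range by FPKM. In CPM, PVR 1 at 161 and PVR 2 at 157 were below all normal samples, the lowest of which was at 163. For NOTCH2 the log2 fold change was -0.029 ± 0.075 (SE), with a 95% interval from -0.20 to 0.15 and edgeR's adjusted p at 0.845. The sign turned with the scaling, to 0.041 on the log2(FPKM + 0.1) scale. The interval of NOTCH2 was the narrowest of the 8, with counts between 5270 and 7477 per sample.

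The fitted changes of the 3 measured effectors differed in sign, and none passed the test. HES1, a repressor of proneural genes that is also induced by signals other than Notch, had FPKM values of 10.7, 10.5 and 8.19 in normal retina, against 11.1, 12.9 and 11.4 in PVR retina. By FPKM all PVR samples exceeded all normal ones. In CPM the groups overlapped, at 18.3, 18.5 and 13.7 against 18.1, 20.8 and 18.9. The TMM factor was 0.953 in normal 2, which raises its CPM, and 1.03 in PVR 1, which lowers it. Among all genes tested, 13.4% had PVR above normal in CPM without overlap. The share in FPKM was not counted, so the FPKM pattern of HES1 has no background beside it. The median log2 fold change over all genes was 0.037 on log2(FPKM + 1), against -0.0088 in edgeR after TMM. The log2 fold change of HES1 was 0.20 ± 0.16 (SE), with a 95% interval from -0.17 to 0.56 and edgeR's adjusted p at 0.491, and it was 0.076 without normal 3, the lowest sample.

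HEY1, which with HEY2 is known for a role in vessels as well as in neural progenitors, had FPKM values of 11.7, 10.5 and 9.56 in normal retina, against 9.40, 9.35 and 8.77 in PVR retina. All 3 PVR samples were below all 3 normal samples, on the FPKM and the CPM scale. The same pattern, PVR below normal in CPM without overlap, was found for 14.6% of all genes tested, and HEY1 was the only member with it. Its mean CPM was 25.7 ± 2.88 (SD, n = 3) in normal retina and 21.1 ± 0.566 (SD, n = 3) in PVR. The log2 fold change was -0.28 ± 0.12 (SE), with a 95% interval from -0.57 to 0.0030, and edgeR's p was 0.0519 unadjusted and 0.241 adjusted. Among the 16 other settings, the adjusted p was between 0.137 and 0.489.

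HEY2 was the least abundant of the 8, with counts between 309 and 493 per sample. Its FPKM values were 2.04, 2.99 and 2.18 in normal retina, against 3.38, 3.92 and 2.39 in PVR retina. PVR 1 and PVR 2 were above all normal samples, whereas PVR 3 was below normal 2. The fitted change of HEY2 was 0.35 ± 0.24 (SE), with a 95% interval from -0.21 to 0.90 and edgeR's adjusted p at 0.428. Single libraries set its size: it was 0.56 without normal 2, the lens-rich sample, 0.51 without PVR 3 and 0.20 without PVR 2, with adjusted p of 0.316, 0.226 and 0.755 from the same test. As HEY2 had the largest fitted change, the genes with the most similar course over the 6 samples were searched among 12388 named genes. The closest were MCTS2, CYTIP and SKAP2, whose centered log2 CPM profiles differed from that of HEY2 by a root mean square of 0.0406, 0.0566 and 0.0768, and none of the 3 passed the test.

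Markers of vessel cells were measured beside these effectors. Of 17 endothelial and mural markers tested, 3 were lower in PVR at an adjusted p under 0.05 (CDH5, VWF and RGS5), 0 were higher, and 12 had a negative fitted change. DESeq2 called 5 lower (CLDN5 and ERG beside these 3) and ACTA2 higher. Of all genes, edgeR called 0.615% lower and 1.09% higher, and DESeq2 3.33% and 5.43%. VWF was called in 13 of the 16 other settings, and CDH5 and RGS5 in 10 and 9 of the 15 that gave a value, VWF being lost without PVR 1 and the others without normal 2, PVR 1 or PVR 2 among the fits that leave out a sample. The summed level of the list was between 671 and 703 CPM in the normal samples and between 729 and 764 CPM in PVR, and KDR and FLT1, both with positive fitted changes that did not pass the test, made up most of it. The part of vessel cells in the values of HEY1 and HEY2 was not tested.

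None of the 3 progenitor factors passed the test. SOX2, which maintains neural progenitors and Müller glia, had FPKM values of 14.2, 19.3 and 15.0 in normal retina, against 15.7, 15.4 and 15.7 in PVR retina. The 3 PVR samples were close together, and the width of the normal group came from normal 2. For SOX2 the log2 fold change was -0.12 ± 0.14 (SE), with a 95% interval from -0.44 to 0.20 and edgeR's adjusted p at 0.634. Without normal 2, the lens-rich library, it turned to 0.052 (adjusted p = 0.819 from edgeR). SOX9, a glial and progenitor factor, had FPKM values of 17.8, 20.5 and 20.4 in normal retina, against 23.8, 20.8 and 21.6 in PVR retina. As with HES1, all PVR samples exceeded all normal ones in FPKM but not in CPM. There normal 2, at 39.5, exceeded PVR 2, at 36.7, and PVR 3, at 39.4. The share of all genes with PVR above normal was 13.4% in CPM and was not counted in FPKM, so the FPKM pattern has no background beside it. The log2 fold change of SOX9 was 0.10 ± 0.10 (SE), with a 95% interval from -0.14 to 0.34 and edgeR's adjusted p at 0.594.

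PAX6, which specifies the eye and is kept by inner retinal neurons, had FPKM values of 37.7, 34.6 and 46.8 in normal retina, against 48.5, 46.4 and 44.7 in PVR retina. The PVR samples were above normal 1 and normal 2, and normal 3 lay among them. The log2 fold change was 0.16 ± 0.11 (SE), with a 95% interval from -0.09 to 0.42 and edgeR's adjusted p at 0.419. It was 0.29 without normal 3, where edgeR's p was 0.0125 unadjusted and 0.123 adjusted, and 0.093 without normal 2. Of 20 amacrine, horizontal and ganglion cell markers, 0 were called by edgeR or DESeq2, and 2 had an unadjusted p under 0.05 in edgeR. The shares over all genes were 1.70%, 8.75% and 21.2%. A negative fitted change was found for 16 of the 20, and the median was -0.15. In RefSeq's annotation of the later assembly mOryCun1.1, PAX6 overlaps ELP4 and a non-coding RNA gene, and NOTCH2 overlaps a non-coding RNA gene. As the strand setting of the counting is not given in the sources used here, reads of such partners cannot be told apart.

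The normal samples were further apart than the PVR samples for most of these genes. The SD of FPKM relative to the mean was larger in normal retina for 7 of the 8, HEY2 being the exception, as it was for 54.3% of all genes tested. For SOX2 it was 17% in normal retina and 1.19% in PVR, for PAX6 16% and 4.14%, and for HEY2 21.2% and 24.1%. The SOX2 value of normal retina came from the lens-rich normal 2, at an FPKM of 19.3, against 14.2 and 15.0 in normal 1 and normal 3. The exception of HEY2 depended on the scale, since in CPM NOTCH2 rather than HEY2 was relatively wider in PVR. The CPM of NOTCH2 was 167 ± 7.10 (SD, n = 3) in normal retina and 163 ± 7.90 in PVR. That of HEY2 was 9.60 ± 2.25 and 12.2 ± 2.79. With 3 samples a group these SDs are imprecise, and their difference was not tested.

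To compare the genes with each other without any scaling between samples, the ratio of FPKM within each sample was computed for all 28 pairs, after the single genes had been seen. The groups did not overlap for 5 of the 28 pairs, or 17.9%, against 26.7% of all pairs of genes that reached 10 counts in each of the 6 samples. The largest of the 5 was that of HES1 to HEY1, with a log2 change of 0.48. Over all 28 pairs that of HEY1 to HEY2 was larger, at -0.62, but its groups overlapped. HES1 and HEY2 both had fitted signs opposite to HEY1. In normal 1 to 3 the ratio of HES1 to HEY1 was 0.911, 1.0 and 0.857, and in PVR 1 to 3 it was 1.18, 1.38 and 1.30. HES1 was therefore at or below HEY1 in the normal retinas and above it in all PVR retinas. The mean was 0.922 ± 0.0722 (SD, n = 3) in normal retina and 1.29 ± 0.101 (SD, n = 3) in PVR, with p = 0.1 in a two-sided exact permutation test of the log2 ratio, the smallest p that 3 samples against 3 allow, and p = 0.467 after adjustment over the 28 pairs. The other 4 pairs without overlap were NOTCH1 to HES1, NOTCH1 to PAX6, HEY1 to SOX9 and HEY1 to PAX6, each with a lower ratio in PVR. The ratio of NOTCH1 to PAX6 was 0.173, 0.186 and 0.174 in normal retina, against 0.136, 0.153 and 0.143 in PVR retina. In the exact test every pair without overlap gets p = 0.1, so this p adds nothing to the lack of overlap.

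**Figure D3:**
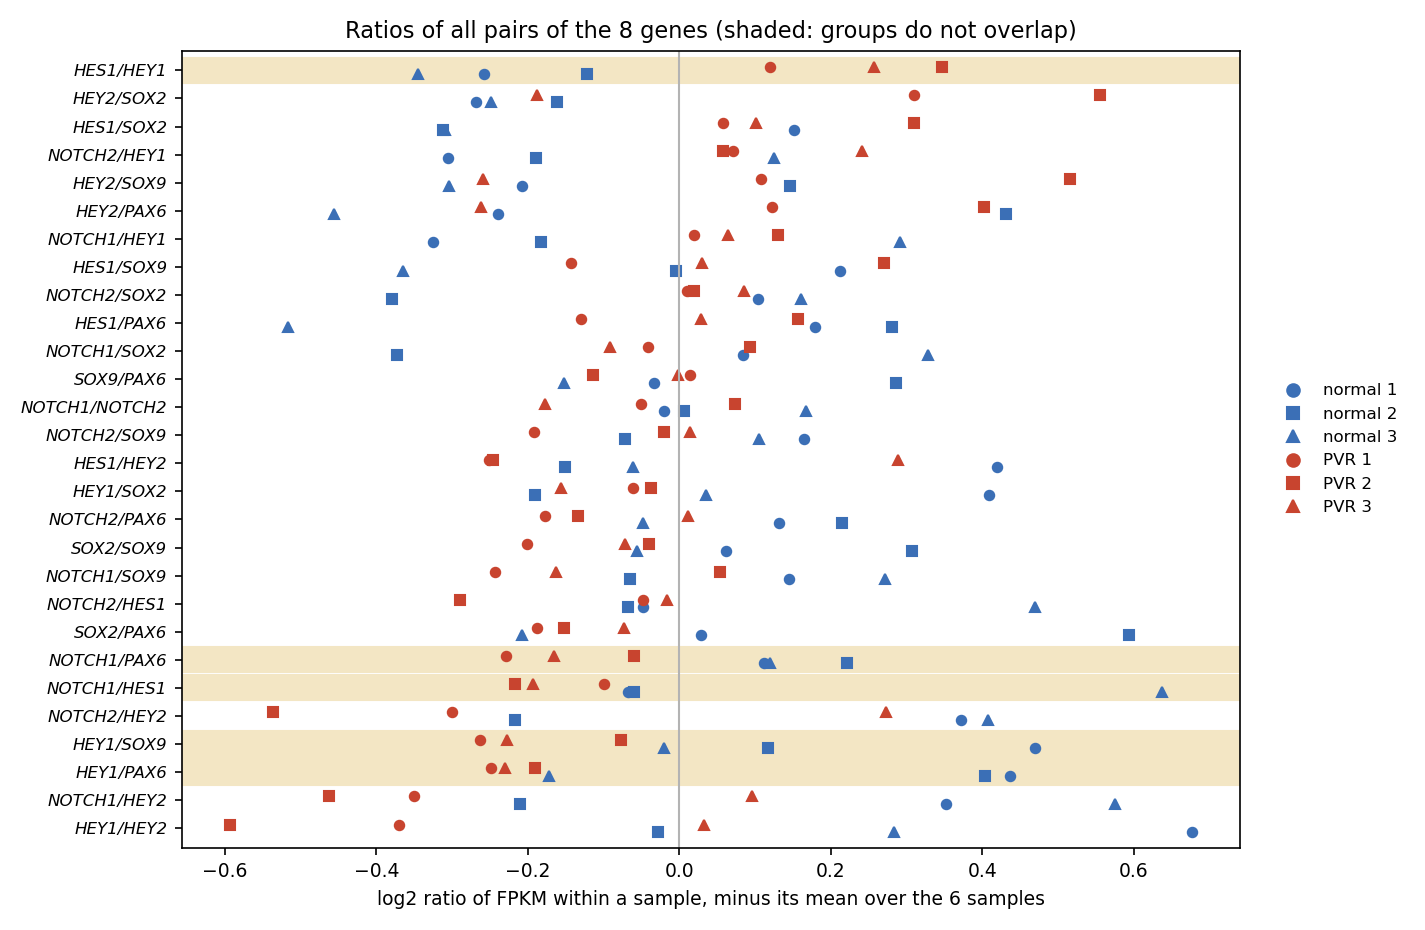
Ratio of FPKM within each sample for all 28 pairs of the 8 genes (log2, horizontal axis, each minus its mean over the 6 samples) in normal (blue) and PVR (red) samples, with symbols for the replicate number. The shaded rows are the 5 pairs whose groups do not overlap, with HES1/HEY1 at the top.

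Among the other genes of the Notch pathway, 1 was called. There were 3 lists, of ligands and other receptors, processing factors, and nuclear partners and further targets. Of their 56 genes, 51 were matched and all 51 were tested. Of these, 1 rose and 0 fell, which does not stand apart from the background. Of all genes tested, edgeR called 1.09% higher and 0.615% lower. The median log2 fold change of the 51 was -0.051. The most abundant ligand was JAG1, with an FPKM of 28.8 ± 1.82 (SD, n = 3) in normal retina and 29.6 ± 1.43 (SD, n = 3) in PVR and a log2 fold change of -0.035 ± 0.084 (SE; edgeR, adjusted p = 0.828). DLL1, the ligand used by newborn neurons, had a log2 fold change of -0.079. DNER, a neuronal Notch-like ligand, had FPKM values of 22.5, 21.0 and 25.6 in normal retina, against 17.4, 17.0 and 20.8 in PVR retina. Its groups did not overlap in FPKM or CPM, with PVR below normal, as in CPM for 14.6% of all genes tested. The log2 fold change of -0.39 ± 0.11 (SE) had an adjusted p of 0.114 from edgeR. Without PVR 3 it was 0.0458, the single one of the 16 other settings under 0.05, and in the others it was up to 0.368.

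The called gene was DLK1, a ligand-like protein without the motif of the classical ligands. It had 0, 0 and 1 counts in normal 1 to 3, against 28, 15 and 21 counts in PVR 1 to 3. DLK1 thus passed the filter on low counts only through the PVR group, where it was high. With at least 10 counts required in every sample it was not tested. All normal samples were below 3 counts, taken per library as the limit of detection, against which the mean of 0.595 CPM in PVR was at least 7.56-fold higher (adjusted p = 0.0402 from edgeR). The call was present in 8 of the 15 other settings that gave a value. It was lost on the log2(FPKM + 1) scale (adjusted p = 0.088 from limma), and without normal 1, normal 2, normal 3, PVR 1 or PVR 2, with adjusted p of 0.132, 0.141, 0.0506, 0.227 and 0.0882 from edgeR.

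Among the processing factors, PSENEN, a subunit of the gamma-secretase that cuts Notch, MIB1, a ubiquitin ligase that activates the ligands, and NEURL1, another such ligase, were the most abundant, with log2 fold changes of -0.17, -0.028 and 0.031. The 24 tested genes of this list had a median of -0.039, and edgeR called 0 of them, with 3 at an unadjusted p under 0.05. DESeq2 called 2 higher (APH1B and MFNG). For this list and the next, the background was 21.2% of all genes at that unadjusted p in edgeR. DESeq2 called 5.43% of all genes higher and 3.33% lower. Among the nuclear partners and further targets, RBPJ, the DNA-binding partner of Notch, had a log2 fold change of -0.018 ± 0.11 (SE). SNW1, HDAC1 and EP300, which belong to the transcriptional complexes, were the most abundant, with log2 fold changes of -0.11, -0.22 and -0.017. The median of the 18 tested genes was -0.023, and edgeR called 0, with 4 at an unadjusted p under 0.05, while the calls of DESeq2 included HES6, lower in PVR. HES6, which counteracts HES1 and was picked here after its values were seen, had 212, 281 and 221 counts in normal retina, against 89, 132 and 157 in PVR retina. Its log2 fold change was -0.83 ± 0.23 (SE; edgeR, adjusted p = 0.112), and DESeq2, with 0.0287, was the single one of the 16 other settings under 0.05.

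Among other genes of the progenitor program, 1 was called. Of 37 retinal progenitor, glial and proneural genes, 36 were matched and 31 tested, of which 0 rose and 1 fell. This does not stand apart from the background, as edgeR called 1.09% of all genes higher and 0.615% lower. The median log2 fold change was 0.0064. OTX2, a transcription factor of photoreceptors, and MEIS1, one of progenitors and neurons, were among the most abundant of the first list, with log2 fold changes of 0.027 and 0.28 and adjusted p of 0.857 and 0.14 from edgeR. Of the proneural genes, NEUROD1, also a photoreceptor gene, NEUROD4 and ATOH7, which specifies ganglion cells, were the most abundant, with log2 fold changes of 0.32, -0.057 and -0.43 and adjusted p from 0.156 to 0.731 from edgeR.

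The gene that fell was SOX10, a factor of oligodendrocytes and neural crest cells. It had 84, 233 and 236 counts in normal retina, against 22, 31 and 27 in PVR retina, a log2 fold change of -2.67 ± 0.44 (SE; edgeR, adjusted p = 0.0402). It was called in 7 of the 16 other settings, and its adjusted p was 0.131 without normal 2, 0.0518 without normal 3, and 0.226, 0.0887 and 0.0553 without PVR 1, 2 or 3, all from edgeR. It was also above 0.05 with limma-voom and on both FPKM scales, up to 0.105. SOX10 is on the list of oligodendrocyte markers as well, and all 10 tested markers of that list had negative fitted changes with a median of -2.51, with 4 called by edgeR (MAG, MOBP, ERMN and SOX10) and 9 by DESeq2, MOG being the exception; all 4 edgeR calls were lost without normal 2 or without PVR 1. Their summed level was between 260 and 1231 CPM in the normal samples and between 144 and 159 CPM in PVR. Of all genes, edgeR called 0.615% lower and DESeq2 3.33%. The part of oligodendrocytes in the value of SOX10 was not tested.

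Some genes listed as Müller glia markers differed in PVR while SOX2 and SOX9 did not pass the test. Of 15 Müller glia markers, 2 rose and 2 fell at an adjusted p under 0.05 in edgeR, against 1.09% and 0.615% of all genes. DESeq2 called the same 2 higher and 4 lower, with KCNJ10 and RDH10 added, against 5.43% and 3.33% of all genes. The list had no common direction, with 7 positive and 8 negative fitted changes and a median of -0.026. Its largest fitted change, 1.39 ± 0.44 (SE) for GFAP, did not pass the test (edgeR, adjusted p = 0.143). GLUL, which converts glutamate to glutamine, fell from an FPKM of 313, 346 and 429 in normal 1 to 3 to 186, 170 and 173 in PVR 1 to 3, a log2 fold change of -1.11 ± 0.12 (SE; edgeR, adjusted p = 0.0125). RLBP1, a carrier of visual cycle retinoids, fell by 0.89 ± 0.13 on the log2 scale (SE; edgeR, adjusted p = 0.0294). CLU, the secreted chaperone clusterin, rose from 401, 426 and 449 to 967, 1026 and 822, a log2 fold change of 1.07 ± 0.10 (SE; edgeR, adjusted p = 0.00733). CD44, a hyaluronan receptor, rose by 0.41 ± 0.075 on the log2 scale (SE; edgeR, adjusted p = 0.0478). GLUL and CLU were called in 15 of the 16 other settings, the exception being the fit without PVR 1, with adjusted p of 0.106 and 0.0949 from edgeR. RLBP1 was called in 10 settings and lost without normal 1, normal 2, PVR 1 or PVR 2, with adjusted p of 0.0916, 0.0916, 0.188 and 0.0665. CD44 was called in 6 settings and lost whenever 1 of the 6 samples was left out, with adjusted p from 0.0606 to 0.257. The difference between these genes and SOX2 or SOX9 was not tested, nor was the part of other cell types in the values of these genes.

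**Figure D4:**
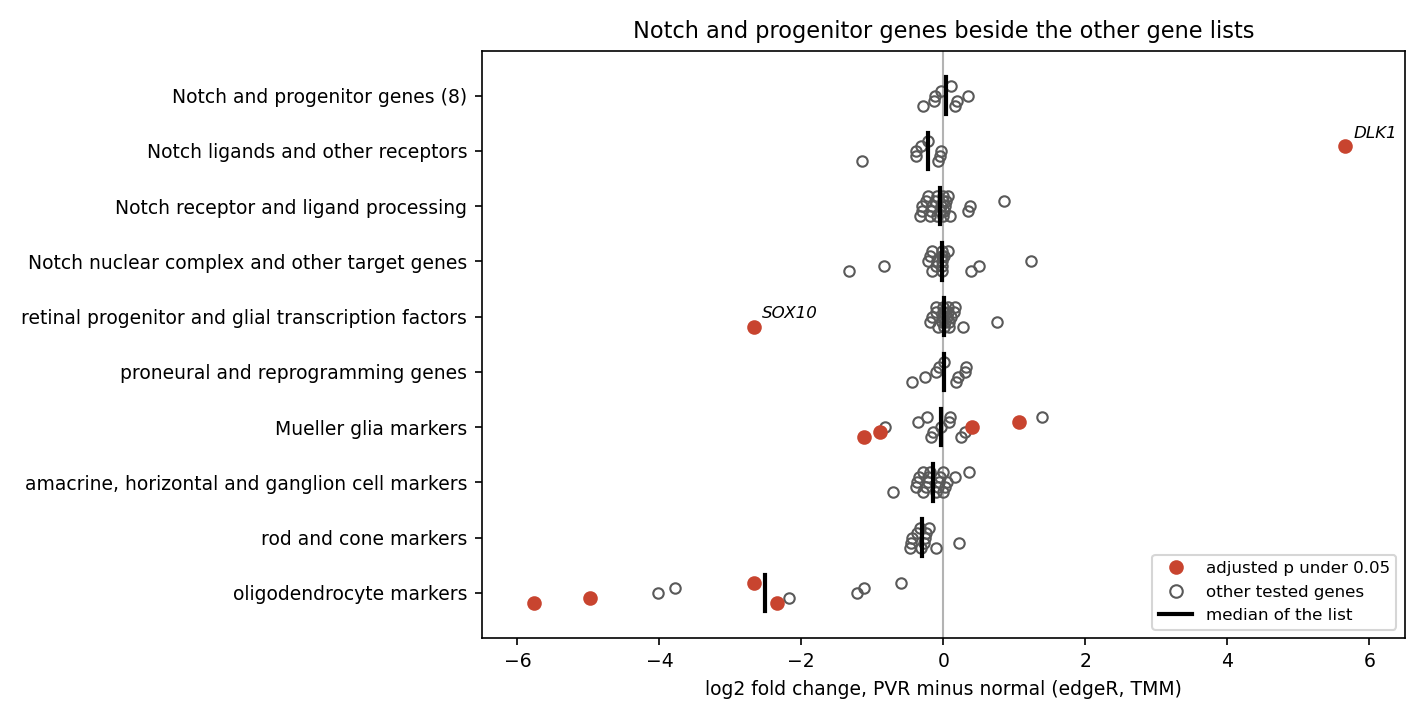
Log2 fold change (horizontal axis, PVR minus normal, edgeR after TMM) of each tested gene in the 8 Notch and progenitor genes and in 9 other lists, with filled points for an adjusted p under 0.05 and a bar for the list's median. The 8 genes lie between -0.28 and 0.35; DLK1 and SOX10 are the called genes of the Notch and progenitor lists, and the oligodendrocyte markers lie to the left with a median of -2.51.

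The other cell types were measured in the same way. As the background for each list, edgeR called 1.09% of all genes higher and 0.615% lower. An unadjusted p under 0.05 was found for 21.2% in edgeR, and DESeq2 called 5.43% higher and 3.33% lower. Rod and cone markers had a negative fitted change in 11 of 12 genes, a median of -0.29 and 0 calls by edgeR, with 6 at an unadjusted p under 0.05, and their summed level was between 41364 and 49179 CPM in the normal samples and between 29770 and 40692 CPM in PVR. Of 11 macrophage and microglia markers, all had positive fitted changes, with a median of 0.95 and 0 calls at an adjusted p under 0.05 from edgeR, 7 having an unadjusted p under 0.05 and 4 being called by DESeq2. Pigment epithelium markers had a median of -0.74 over 8 tested genes, with 5 at an unadjusted p under 0.05 in edgeR. From this list DESeq2 called 4 lower and 0 higher. LRAT and TTR were called lower by edgeR, each in 7 of the 16 other settings and not without normal 1, normal 2 or any single PVR sample. Of 4 astrocyte markers edgeR called 0, with 3 at an unadjusted p under 0.05, and DESeq2 called 2 lower; the median was -0.17, while their summed level, mostly GFAP, was between 94.9 and 308 CPM in normal retina and between 441 and 498 CPM in PVR. Of 11 tested lens markers edgeR and DESeq2 called 0, with 2 at an unadjusted p under 0.05 in edgeR and a median of -5.44. Normal 2 held most of their counts, with a summed level of 33025 CPM, and without it the direction turned, since the sum was 20.0 and 16.4 CPM in normal 1 and normal 3 and between 278 and 312 CPM in PVR. The part of these cells in the levels of the 8 genes was not tested.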

How the data were processed

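The deposited counts and FPKM values of 3 normal and 3 PVR retina samples were used. HISAT2 alignment to the OryCun2.0 assembly and gene counting by htseq-count were done by the authors, who deposited the raw count of each gene without normalization; fastp is also named in the submitters' processing notes. The authors deposited FPKM values as well, which rest on the same counts, since dividing one by the other gave a single length per gene. Strand setting and annotation release are not given in the sources used here.

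Counts were tested in R 4.3.3 with edgeR 4.0.16: default filter on low counts (18697 of 28788 genes kept), TMM factors, a quasi-likelihood test with condition as its single term, and Benjamini-Hochberg adjustment. The standard error is the log2 fold change divided by the square root of F, and 95% intervals use the t quantile of the same fit. Called means an adjusted p under 0.05; the study's further threshold, a log2 fold change of 1, is used for counts only. DESeq2 1.42.0, limma 3.58.1 and SciPy 1.17.1 served for alternatives and exact tests. Of 225 distinct listed genes, 213 were matched by symbol, 3 through RefSeq gene identifiers (mOryCun1.1, names only) and 9 not. The members and lists were chosen with earlier results of these data known. Genes named are the members, listed genes with an adjusted p under 0.05, the 3 most abundant genes of each pathway list, and the 3 genes closest in profile to the member with the largest change; RBPJ, HES6, APH1B, MFNG, GFAP, MOG, CLDN5, ERG, ACTA2, KDR, FLT1, KCNJ10 and RDH10 and the genes outside the tests were named after their values were seen. Some genes that this rule would name are not reported here. The depth of 31904593 to 43035080 counted reads per sample bounds counting error only, as reads without molecular identifiers are not independent. In counts simulated for 18697 genes, with 200 changed, edgeR recovered 36 of 93 changes of 1 and 76 of 107 changes of 2 (log2), with 12 false calls among 124.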

Additional observations from a re-analysis of the deposited data

How the results depend on the processing

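The count of called members was 0 with and without the threshold on fold change in the edgeR test and in all 16 other settings, in each of which 8 were tested. The fitted sign was kept in all settings by NOTCH1, HES1, HEY1, HEY2, SOX9 and PAX6. That of NOTCH2, close to 0, reversed to 1.4e-05 with upper-quartile factors, 0.038 on log2(FPKM + 1), 0.041 on log2(FPKM + 0.1), 0.014 without normal replicate 3 and 0.00021 without PVR replicate 2, and ranged from -0.071 to 0.014 with a sample left out. That of SOX2 reversed to 0.052 without normal replicate 2, in a range from -0.21 to 0.052. The cause was not tested. Of all genes, 188 passed both thresholds and 318 the adjusted p alone; DESeq2 gave 807 and 1755 and the replicate block 82 and 92. The first count was 87 on log2(FPKM + 1), and the second was 168 on log2(FPKM + 0.1). With 1 sample left out, the counts ranged from 22 (without PVR replicate 1) to 436 and from 22 to 650 (both highest without PVR replicate 3). Called Notch pathway genes were 1 with edgeR, 5 with DESeq2, 0 with at least 10 counts in every sample, on log2(FPKM + 1) and with the replicate block, and 0 to 2 with a sample left out. Called progenitor and proneural genes were 1 with edgeR, 2 with DESeq2, 0 with limma-voom, on both FPKM scales and with the replicate block, and 0 to 1 with a sample left out. The share of all genes called was 1.70% with edgeR and 8.75% with DESeq2. Whether the replicate numbers pair the samples cannot be decided from 3 samples a group. Deviations of same-numbered samples correlated at -0.0185, 0.054 and 0.015. Normal 2 and normal 3 correlated best with their own number, and normal 1 with PVR 3, at 0.0669. With the block, the adjusted p of DLK1 was 0.105 and that of SOX10 0.074 in edgeR. Depth limits DLK1 and the other genes with few counts, whereas each member had at least 309 counts in every sample.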

Other observations

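Some transcription factors of the progenitor lists did not pass edgeR's filter on low counts, and are given as counts in normal 1 to 3 and PVR 1 to 3. SOX1, a relative of SOX2 that is also known from the lens, had 0, 97 and 0 counts in normal retina, against 4, 4 and 1 in PVR retina, so that nearly all of its reads came from the lens-rich normal 2. SOX3 had 6, 27 and 26 counts in normal retina, against 1, 0 and 2 in PVR retina, and was called lower by DESeq2, which was run without that filter. OLIG2, a factor of oligodendrocyte precursors, had 0, 18 and 41 counts in normal retina, against 0, 0 and 6 in PVR retina. LIN28A, a reprogramming factor, had 0, 10 and 5 counts in normal retina, against 12, 14 and 4 in PVR retina.

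Of 12 matched proliferation genes, 8 had enough counts to be tested, and 3 of these had positive fitted changes. In edgeR 0 had an adjusted or an unadjusted p under 0.05, against 1.70% and 21.2% of all genes. DESeq2 called 0, against 8.75%. MKI67, a marker of dividing cells, had 3, 20 and 1 counts in normal retina, against 24, 27 and 4 in PVR retina. PCNA, a clamp of DNA replication, had a log2 fold change of -0.13 ± 0.098 (SE; edgeR, adjusted p = 0.467).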
